A study of Mus musculus with 38 samples.

Results

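The 9 genes described here, Sptlc1, Sptlc2, Cers2, Cers5, Degs1, Fa2h, Ugt8a, Gal3st1 and Ugcg, code for enzymes that lead from the sphingoid base to ceramide and on to the galactolipids of myelin. They were chosen by name, not by any measured value, and are 9 of the 54532 genes in the count table. All 9 passed the filter on low counts and are among the 22798 genes tested.

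Serine palmitoyltransferase, built from SPTLC1 and SPTLC2, joins serine to a fatty acyl chain and so starts every sphingolipid. Ceramide synthases (CERS2 for very long acyl chains, CERS5 for shorter ones) and the desaturase DEGS1 turn the product into ceramide, and FA2H hydroxylates the fatty acid that ceramide carries. Ceramide then takes galactose from UGT8A to become galactosylceramide, the galactolipid that myelin is rich in, and GAL3ST1 adds sulfate to make sulfatide, whereas UGCG adds glucose and opens the way to gangliosides.

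RNA was sequenced in bulk from oligodendrocyte precursor cells (OPCs), the dividing glial cells that mature into myelinating oligodendrocytes, in 38 libraries from mouse forebrain of postnatal days 6 to 7. The 19 WT libraries came from NG2:Cre-;Bmal1fl/fl mice and the 19 KO libraries from NG2:Cre+;Bmal1fl/fl mice, in which Cre under the promoter of NG2 (the gene Cspg4, active in OPCs and in pericytes) removes the DNA-binding domain of the clock factor BMAL1. Mice were held in 12 h of light and 12 h of dark, and cells were taken every 6 h from ZT0, when lights go on, through ZT6 and ZT12, when they go off, to ZT18. These times have 4, 5, 6 and 4 WT and 4, 7, 4 and 4 KO libraries. Each library pooled OPCs of 2 mice, panned against microglia and endothelial cells and then for PDGFRα. Both groups carry the floxed Bmal1 alleles, there is no group with Cre and intact Bmal1, and the submitters describe the model as a transcriptional hypomorph.

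The libraries held between 19.4 M and 39.0 M gene counts (median 25.9 M). Counts of Arntl, the gene of BMAL1, lay at 19.3 to 33.2 CPM (counts scaled to a common library size) in WT and 17.7 to 23.4 CPM in KO, a log2 fold change over all times of -0.17 (edgeR quasi-likelihood adjusted p = 0.183). The count covers the whole gene, including exons outside the removed part, so it does not check the genotype labels. In 8 libraries ribosomal RNA took at most 0.263% of counts, against at least 0.409% in the other 30. These 8 are WT ZT12 replicates 4 to 6, KO ZT6 replicate 7 and all 4 KO libraries at ZT18, so at ZT18 a low ribosomal share and the KO genotype cannot be told apart. The submitters state an equal use of the sexes, but 13 libraries held RNA of 1 sex (Xist under 50 CPM or the summed Y-linked genes under 1 CPM), 4 of the 6 WT and 0 of the 4 KO libraries at ZT12 among them. The OPC markers Pdgfra and Cspg4 stood at means of 405 and 78.1 CPM per kb of the deposited gene length. Opalin, a marker of mature oligodendrocytes, was at 0 counts in 31 libraries. The panned cells still held microglial RNA, with Cx3cr1 at a mean of 299.6 CPM per kb and the sum of 15 microglia markers from 4115 to 18637 CPM.

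In GRCm38 coordinates the genes lie on 8 chromosomes. Sptlc1 is at chr13:53332748-53377397 and Sptlc2 at chr12:87305058-87388355, both on the minus strand. Cers2 is at chr3:95314791-95323599 (plus), Cers5 at chr15:99734881-99772885 (minus) and Degs1 at chr1:182275772-182282804 (minus). Fa2h is at chr8:111345135-111393824 (minus), Ugt8a at chr3:125865271-125938619 (minus), Gal3st1 at chr11:3983636-3999326 (plus) and Ugcg at chr4:59189257-59222833 (plus). Counts are over whole genes, so exons and isoforms are not distinguished.

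All 9 enzymes were readily measured in OPCs. Genes were compared per kb of the deposited gene length, which need not be the length of the isoforms expressed. On this scale Cers2 had the highest mean level over the 38 libraries at 38.3 ± 3.81 CPM per kb (SD), followed by Degs1 at 36.6 ± 3.79. The galactolipid genes Ugt8a and Gal3st1 lay just below at 32.1 ± 3.96 and 31.4 ± 4.37 CPM per kb. Cers5 stood at 24.3 ± 1.55, Sptlc1 at 18.8 ± 1.31, Ugcg at 14.0 ± 1.08, Sptlc2 at 12.2 ± 1.59 and Fa2h at 9.78 ± 1.95 CPM per kb. The median of the genes tested was 2.71 CPM per kb, and 17036 of the genes tested had a lower level than Fa2h and 21660 a lower level than Cers2. For comparison, Mbp, which codes for myelin basic protein, had a mean of 10.9 CPM per kb. On this scale Ugt8a and Gal3st1 stood above it and Fa2h close to it. That order depends on the deposited gene lengths, so it does not rank the transcripts themselves.

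**Figure D1:**
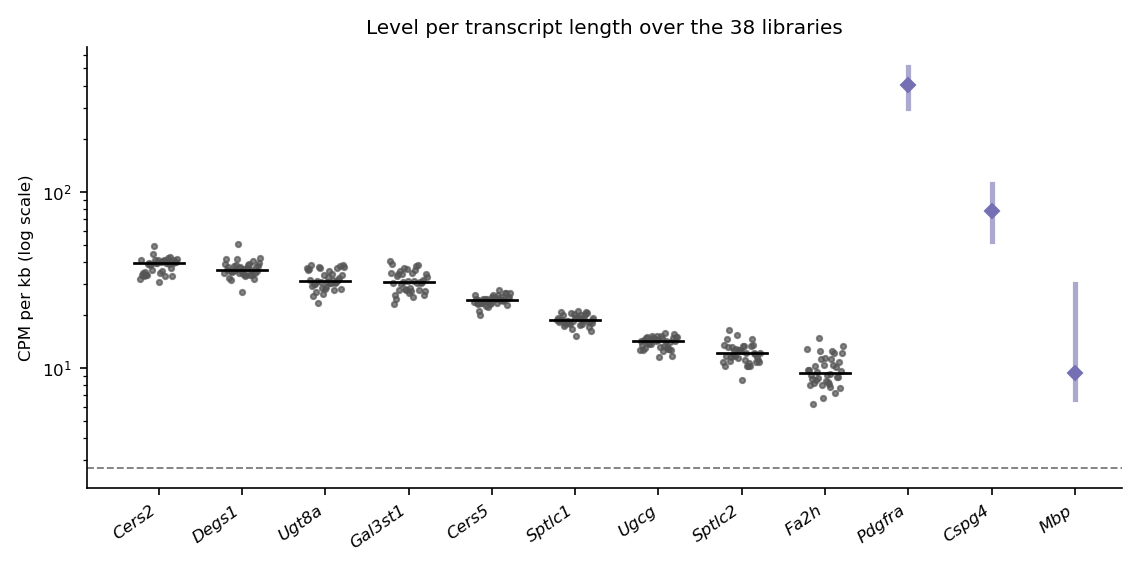
Level per kb of the deposited gene length (CPM per kb, log scale) of the 9 enzyme genes in each of the 38 libraries (points) with their medians (lines), and of the markers Pdgfra, Cspg4 and Mbp (diamond, median, and bar, lowest to highest library). The dashed line is the median of the genes tested, 2.71 CPM per kb, and every point of the 9 genes lies above it.

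The 9 genes differed in how much they varied from library to library. The coefficient of variation over the 38 libraries ran from 6.36% for Cers5 to 19.9% for Fa2h, and was 6.99% for Sptlc1, 7.73% for Ugcg, 9.95% for Cers2, 10.4% for Degs1, 12.3% for Ugt8a, 13.0% for Sptlc2 and 13.9% for Gal3st1. The median over the 7101 genes with a mean log2 CPM above 5 was 13.3%, which Fa2h and Gal3st1 exceeded. Fa2h, at a mean of 29.4 CPM, lies below the level of that comparison set. The highest library was 1.37 times the lowest for Cers5, 1.38 times for Ugcg and 1.39 times for Sptlc1, and 2.38 times for Fa2h. For each gene the 8 group means were put in order, and in all 63 pairs of neighbours in these orders the ranges of single libraries overlapped. The highest and the lowest group were free of overlap for 3 genes, Cers2 (KO ZT6 over KO ZT12), Ugt8a (KO ZT0 over KO ZT18) and Ugcg (WT ZT6 over WT ZT18). These groups were picked as the extremes of 8 by the same values. The share of all genes tested with such a gap was not computed, so this is a description only.

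**Figure D2:**
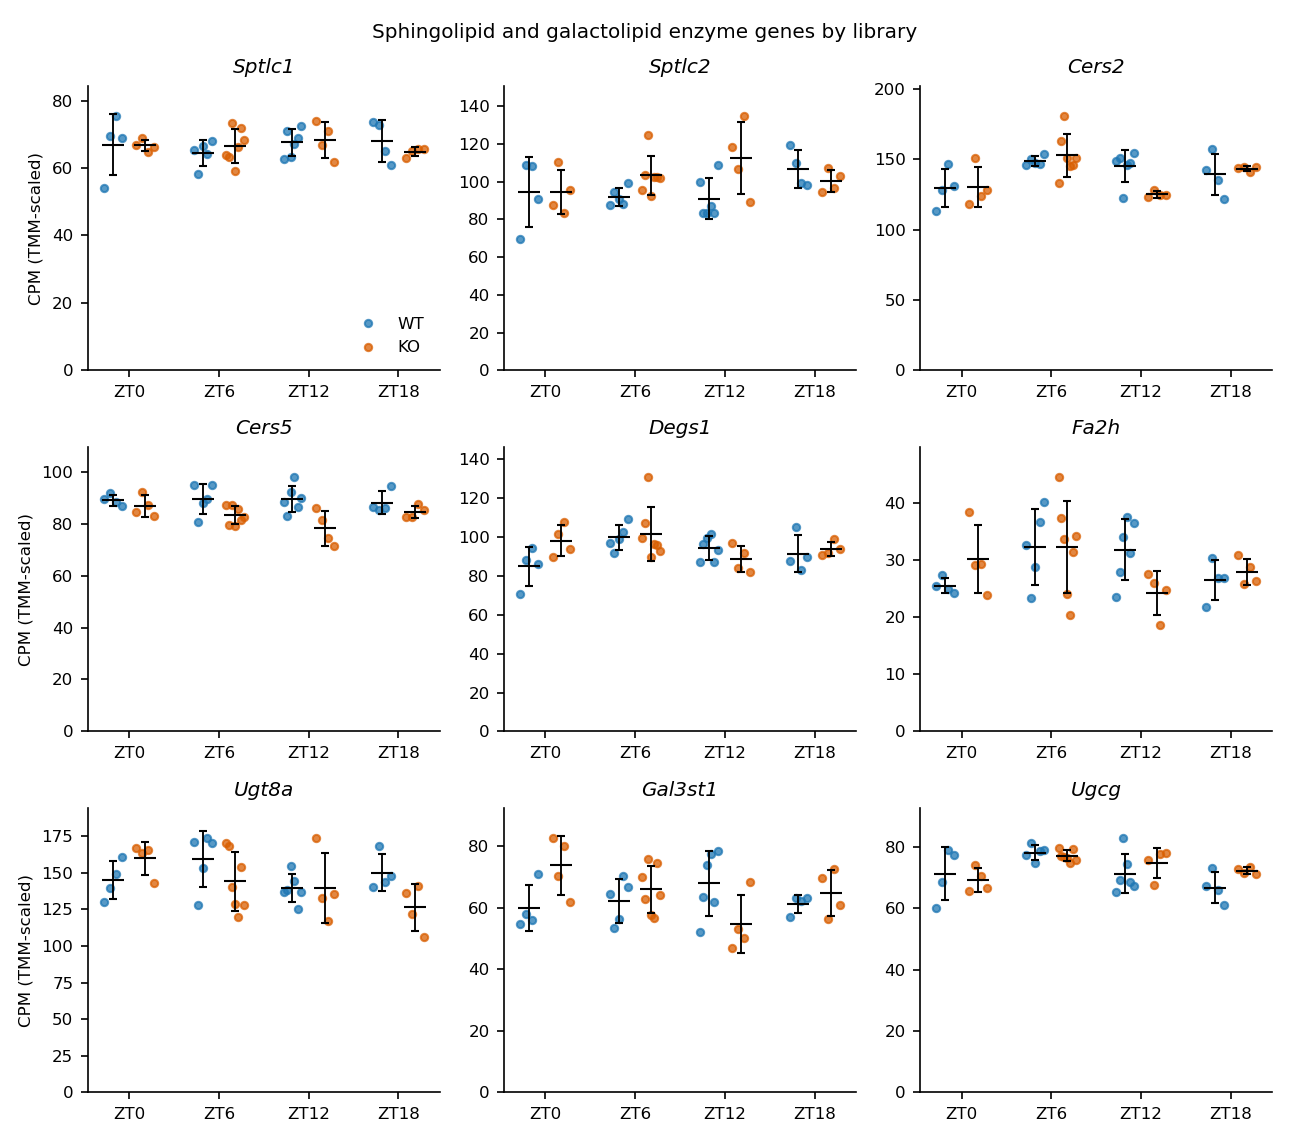
CPM (scaled by TMM factors, linear axes from 0) of each of the 9 genes by time of day, with 1 point per library, WT in blue and KO in orange. Horizontal lines and bars are group means and SD, n = 4, 5, 6 and 4 for WT and 4, 7, 4 and 4 for KO. WT and KO points overlap for nearly every gene and time.

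Between genotypes, none of the 9 genes passed a false discovery rate of 0.05 over all genes tested. Over all times, 0 of 9 passed in the KO against WT comparison, where 0.0921% of all genes tested did. At ZT0 the count was again 0 of 9 against 0.285% of all genes, at ZT6 0 of 9 against 0.0132%, at ZT12 0 of 9 against 5.00% and at ZT18 0 of 9 against 2.14%. The test was edgeR's quasi-likelihood test on 1 fit of the 8 groups, with Benjamini-Hochberg adjustment. At an unadjusted p under 0.05 the 9 genes counted 1, 2, 0, 5 and 1 in these 5 comparisons, where 15.1%, 18.4%, 4.39%, 20.1% and 18.2% of all genes did. DESeq2 called 1 gene over all times (Cers5, log2 fold change -0.11, adjusted p = 0.0334) and 1 at ZT12 (Sptlc2, 0.33, adjusted p = 0.0386), and 0 at the other times. Limma-voom called 1 at ZT12 (Cers5, -0.20, adjusted p = 0.0469) and 0 in the other 4 comparisons. A term for the microglia marker level in the edgeR fit was added after seeing the data. With it 3 genes passed at ZT12, Sptlc2 (0.31, adjusted p = 0.0102), Cers2 (-0.20, adjusted p = 0.0265) and Cers5 (-0.20, adjusted p = 0.0388). Over the alternatives other than leaving out 1 library, calls over all genes ran from 5 to 244 over all times and from 1 to 1913 at ZT12. The share of all genes in each single alternative is not given here.

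Intervals from the main edgeR fit show how precisely the differences were estimated. They are for single genes, without adjustment for the number of genes. Over all times the 95% intervals of the 9 fold changes, KO over WT, lay between 0.877 and 1.16 fold. At single times they were wider, from 0.844 to 1.52 fold at ZT0, 0.791 to 1.29 at ZT6, 0.604 to 1.44 at ZT12 and 0.716 to 1.35 at ZT18. The median log2 fold change of the 9 genes was -0.002 over all times, 0.005 at ZT0, 0.03 at ZT6, -0.09 at ZT12 and 0.04 at ZT18. Over all genes tested the medians were -0.02, -0.05, 0.002, -0.008 and -0.004.

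**Figure D3:**
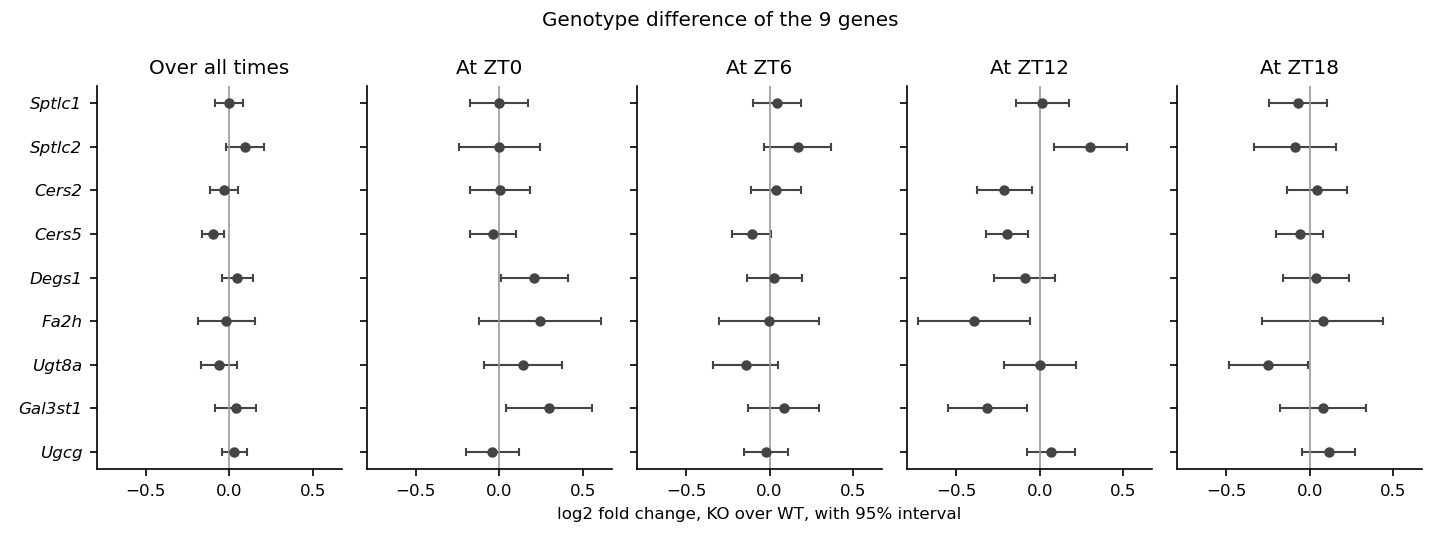
Log2 fold change of KO over WT (x axis) for each of the 9 genes over all times and at each time, with 95% intervals from the edgeR fit. Points lie within 0.10 of 0 over all times, and the widest scatter is at ZT12, from -0.39 for Fa2h to 0.30 for Sptlc2.

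Among the subunits of serine palmitoyltransferase, Sptlc1 had the smallest difference of the 9 genes between genotypes over all times. Its group means ran only from 64.5 CPM in WT at ZT6 to 68.4 CPM in KO at ZT12, and its log2 fold change was -0.002 (SE 0.0401, edgeR adjusted p = 0.988). Sptlc2, which carries the catalytic site, differed most at ZT12. Its 6 WT libraries there had a lowest value of 83.1, a median of 85.3 and a highest value of 109 CPM, and its KO libraries had 119, 107, 134 and 89.3 CPM. KO values were mostly the higher ones, with the fourth KO library inside the WT range. The log2 fold change was 0.30 (SE 0.109) and did not pass (edgeR adjusted p = 0.0963), but without KO ZT12 replicate 4 it was 0.40 and passed (adjusted p = 0.0309).

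Of the ceramide synthases, Cers5 gave the smallest adjusted p of any of the 9 genes at ZT12 and over all times. It was lower in KO by a small step at each of the 4 times, with log2 fold changes of -0.04, -0.11, -0.20 and -0.06 from ZT0 to ZT18. At ZT12 its WT libraries ranged from 83.0 through a median of 89.1 to 97.8 CPM, and the KO libraries had 85.9, 81.4, 74.3 and 71.3 CPM. Only KO replicate 1 reached into the WT range. The difference at ZT12 was -0.20 (SE 0.0634, edgeR adjusted p = 0.0629) and over all times -0.10 (SE 0.0324, adjusted p = 0.138). Without WT ZT12 replicate 2 the ZT12 difference was -0.22 and passed (adjusted p = 0.0429).

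Cers2, the synthase for the very long chains found in myelin lipids, had KO values of 123, 128, 124 and 125 CPM at ZT12. The WT libraries at that time ran from 122 through a median of 148 to 154 CPM, and WT replicate 3 at 122 was the only one as low as the KO libraries. The log2 fold change was -0.21 (SE 0.0813, edgeR adjusted p = 0.124). At the other 3 times the Cers2 difference was at most 0.04 on the log2 scale, with adjusted p-values from 0.851 to 0.984. Degs1, the desaturase that makes ceramide from dihydroceramide, was nominally higher in KO at ZT0, with 89.9, 101, 107 and 93.7 CPM against 70.5, 88.3, 94.3 and 86.2 CPM in WT. These ranges overlapped, and the difference of 0.21 (SE 0.0983) did not pass (edgeR adjusted p = 0.246).

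The genes specific to myelin galactolipids showed differences that changed sign with time, as did all the other enzyme genes except Cers5. The change of sign is thus not particular to the galactolipid genes. None of these differences passed in the main edgeR fit. Gal3st1, the sulfotransferase, had WT values of 54.8, 58.0, 56.1 and 70.9 CPM and KO values of 82.4, 70.4, 80.0 and 61.9 CPM at ZT0. At ZT12 the WT libraries ran from 52.0 through a median of 68.7 to 78.4 CPM and the KO libraries had 47.0, 53.1, 50.1 and 68.2 CPM. KO was thus mostly above WT at ZT0 and mostly below it at ZT12, with overlap at both times. The log2 fold changes were 0.30 (SE 0.127, edgeR adjusted p = 0.200) and -0.31 (SE 0.117, adjusted p = 0.112). Without KO ZT12 replicate 4 the latter was -0.44 (adjusted p = 0.0243), and without WT ZT12 replicate 1 it was -0.38 (adjusted p = 0.0425), both past the threshold.

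Fa2h, the hydroxylase, had KO values of 27.6, 26.1, 18.7 and 24.8 CPM at ZT12 against WT values from 23.5 through a median of 32.7 to 37.7 CPM. All but KO replicate 3 lay inside the WT range. The log2 fold change of -0.39 was the largest by size of any gene of the 9 at any time, with the largest standard error at ZT12 (SE 0.165, edgeR adjusted p = 0.162).

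Ugt8a, the galactosyltransferase that commits ceramide to galactosylceramide, had a log2 fold change of 0.002 at ZT12. At ZT18 its WT libraries had 140, 168, 144 and 148 CPM and its KO libraries 136, 122, 141 and 106 CPM. All but KO replicate 3 lay below every WT library. The difference of -0.25 (SE 0.116) did not pass (edgeR adjusted p = 0.249), and all 4 KO libraries there have the low ribosomal share. In the same 4 libraries Mbp stood at 164, 253, 190 and 156 CPM against 80.6, 84.4, 78.8 and 77.8 CPM in WT, a log2 fold change of 1.25 (adjusted p = 0.00866), and no galactolipid enzyme rose beside it. Fa2h and Gal3st1 had differences of 0.08 each at ZT18, with 95% intervals from 0.821 to 1.35 and from 0.885 to 1.26 fold. Ugcg, the glucosyltransferase that competes with UGT8A for ceramide, had a log2 fold change of 0.11 there (SE 0.0784, edgeR adjusted p = 0.465). Its 95% interval ran from 0.970 to 1.21 fold.

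Whether the genotype difference depended on the hour was tested with the interaction of genotype and time. Here 0 of 9 genes passed, where 9.19% of all genes tested did. At an unadjusted p under 0.05 there was 1 of the 9, Gal3st1 (F = 4.48, edgeR adjusted p = 0.0737), against 24.7% of all genes, and DESeq2 and limma-voom each called 0. Gal3st1 passed this test when WT ZT0 replicate 4, WT ZT12 replicate 1, KO ZT0 replicate 4 or KO ZT12 replicate 4 was left out (adjusted p = 0.0329, 0.0271, 0.0482 and 0.0193).

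Over WT times 0 of the 9 genes passed, where 4.91% of all genes tested passed. At an unadjusted p under 0.05 there was 1 of the 9 (Ugcg) against 17.5% of all genes, and DESeq2 and limma-voom each called 0. Ugcg was highest in WT at ZT6, with 77.3, 81.2, 74.7, 78.5 and 78.8 CPM, and lowest at ZT18, with 67.1, 72.9, 65.7 and 60.9 CPM. The ranges were apart, yet the test over the 4 times did not pass (F = 3.28, edgeR adjusted p = 0.223). Cers2 and Degs1 also had their highest WT means at ZT6, 149 ± 3.30 and 99.8 ± 6.47 CPM (SD, n = 5), and their lowest at ZT0, 130 ± 13.7 and 84.8 ± 10.2 CPM (SD, n = 4). Their tests over time gave adjusted p-values of 0.439 and 0.410.

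In the test over KO times 1 of the 9 genes passed, Cers2, where 21.9% of all genes tested passed, so the share of the 9 genes was not above that of all genes. All KO libraries at ZT18 have the low ribosomal share, so in KO that share and this time cannot be told apart. The call was also lost in several alternatives, given below. Cers2 stood at 118, 151, 124 and 128 CPM at ZT0 and between 133 and 180 CPM at ZT6, with a median of 151 CPM over 7 libraries. At ZT12 it was back at 123, 128, 124 and 125 CPM, and at ZT18 it lay at 144, 144, 141 and 144 CPM. All ZT12 libraries lay below all ZT6 and all ZT18 libraries.

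The test of Cers2 over the 4 KO times gave F = 5.53 (edgeR adjusted p = 0.0216). By steps, 0 of 9 genes passed from ZT0 to ZT6 (10.2% of all genes), 1 of 9 from ZT6 to ZT12 (7.02% of all genes), 0 of 9 from ZT12 to ZT18 (15.6% of all genes) and 0 of 9 from ZT18 to ZT0 (1.59% of all genes). At an unadjusted p under 0.05 these steps held 2, 4, 1 and 1 of the 9 genes, where 23.4%, 22.3%, 30.3% and 18.9% of all genes were. The gene that passed was Cers2, which fell by 0.29 on the log2 scale from ZT6 to ZT12 (SE 0.0793, edgeR adjusted p = 0.0214). From ZT0 to ZT6 its log2 change was 0.23 (SE 0.0792, adjusted p = 0.0574), and DESeq2 called this step (0.23, adjusted p = 0.0194), as did edgeR with RLE size factors (0.23, adjusted p = 0.0420). In edgeR it also passed when 1 of 6 libraries was left out, with the largest change of 0.32 (adjusted p = 0.0185) without KO ZT0 replicate 2.

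The Cers2 call over KO times held in 45 of 51 alternatives, and that of the step from ZT6 to ZT12 in 42 of 50. With a term for the 7 or the 8 libraries of low ribosomal share the edgeR adjusted p over time was 0.0431 and 0.0460. Neither call held in every alternative. The adjusted p over time was 0.0552 without KO ZT12 replicate 1, 0.134 and 0.0576 without the 7 or 8 libraries of low ribosomal share, 0.107 with library size alone as the scaling, 0.0592 without the filter on low counts and 0.0589 with a term for the microglia marker level. The step from ZT6 to ZT12 missed the threshold without KO ZT6 replicate 3 (-0.24, adjusted p = 0.0511), KO ZT12 replicate 1 (-0.27, 0.101), replicate 3 (-0.28, 0.0664) or replicate 4 (-0.29, 0.0501). It also missed it with library size alone (-0.18, 0.0794), without the 7 libraries of low ribosomal share (-0.28, 0.0704), without the filter on low counts (-0.29, 0.0581) and with only the compared groups in the fit (-0.28, 0.0505). With the microglia term it was -0.20 (adjusted p = 0.0328).

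Other readouts move with or overlap this gene. The summed microglia markers had group medians of 7239 CPM in KO at ZT0, 12802 at ZT6, 9302 at ZT12 and 12378 at ZT18, and 10 of the 15 passed the test over KO times. Their part in the Cers2 change was not tested beyond the microglia term. Cers2 overlaps Setdb1 on the other strand, and no source used here gives the strand setting of the counting, so reads in the overlap cannot be told apart. Setdb1 had a mean of 114 CPM, 81.0% of Cers2. Its log2 change from ZT6 to ZT12 in KO was -0.04 (edgeR adjusted p = 0.839), and its correlation with Cers2 over the 38 libraries was 0.13. These are values of the whole gene, and what reads in the overlap add to the Cers2 counts was not tested.

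Gal3st1 and Ugt8a came near the threshold over KO times without passing. For Gal3st1 the edgeR adjusted p was 0.0647, with its highest KO mean at ZT0 (73.7 ± 9.43 CPM, SD, n = 4) and its lowest at ZT12 (54.6 ± 9.41 CPM). Without WT ZT12 replicate 1, KO ZT0 replicate 4 or KO ZT12 replicate 4 it passed (adjusted p = 0.0479, 0.0416 and 0.0159). Ugt8a had an adjusted p of 0.135. Its KO libraries had 167, 164, 166 and 143 CPM at ZT0, and every one was above the KO libraries at ZT18, given above. The step from ZT18 to ZT0 was 0.34 (SE 0.116, adjusted p = 0.0997), and DESeq2 called it (0.37, adjusted p = 0.0369).

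Ratios within a library, per kb of the deposited gene length, set the competing or paired enzymes side by side, as a description. Ugt8a stood at a median of 2.34 times Ugcg over the 38 libraries, with a range of 1.72 to 2.92. On this scale the galactosyltransferase gene had the higher level in every library. The group medians of this ratio were highest in KO at ZT0 (2.62) and lowest in KO at ZT18 (2.06). Cers2 was 1.59 times Cers5 (1.22 to 1.99) and Sptlc1 was 1.53 times Sptlc2 (1.20 to 1.94). Ugt8a and Gal3st1 were close to even, with a median ratio of 1.04 and a range of 0.783 to 1.66.

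The E-box CACGTG, the site of BMAL1 and its partner CLOCK, was searched in the RefSeq promoters of the genes (GRCm38.p6, 250 bases before to 50 after a start site). The motif reads the same on both strands. Of the 9 genes 8 had entries, with 11 promoters in all, Fa2h having none. The E-box was found in 2 of the genes, Cers2 and Degs1, while 7.15% of all promoters in the table (2349 of 32851) and 8.09% of genes (2187 of 27025) hold it. The other Cers2 promoter had no E-box. The stretches are shown because they are the only member promoters with the site; each is 60 bases, 5′ to 3′ on the gene's strand, with the E-box in capitals. Cers2 is at chr3:95315034-95315093 (plus strand), with the E-box starting at position -129 from the start site, and Degs1 at chr1:182282206-182282265 (minus strand), with the E-box at position -43.
Cers2: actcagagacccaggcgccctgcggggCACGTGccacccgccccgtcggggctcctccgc
Degs1: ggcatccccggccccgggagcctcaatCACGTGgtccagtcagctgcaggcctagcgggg
A match describes the letters only. Over all times Cers2 stood at -0.03 and Degs1 at 0.05 (log2 fold change of KO over WT, edgeR adjusted p = 0.759 and 0.672). In the edgeR fit without covariates neither passed at a single time, with Cers2 at -0.21 at ZT12. With the microglia term, added after seeing the data, Cers2 passed at ZT12 (-0.20, edgeR adjusted p = 0.0265) and Degs1 did not. Sptlc2 (0.31, edgeR adjusted p = 0.0102) and Cers5 (-0.20, 0.0388), with no E-box in the promoter stretch searched, also passed there with that term. Sites outside these stretches were not searched, and a part of BMAL1 binding in any of these values was not tested.

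Although the groups differed little, the galactolipid genes followed the OPC marker level of the libraries. Pearson's r over the 38 libraries between the log2 CPM of a gene and the mean log2 CPM of 15 OPC markers was 0.75 for Fa2h (Spearman's rho 0.74), 0.68 for Gal3st1 (rho 0.70) and 0.67 for Ugt8a (rho 0.61). The permutation p was 1e-05 for Fa2h, the smallest that 100000 permutations can give, and 2.00e-05 for the other two. The p adjusted over 9 relations was 6.00e-05 for all 3, and for Spearman's rho at most 0.000150. None of the 9 genes is in a marker list. The share of all genes tested with an r this high is not given here, so the relation need not be particular to these genes. A relation of this kind was chosen after the data were seen, and since bulk values are shares of a library, fewer cells of a type and less RNA per cell cannot be told apart.

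These 3 relations held in each subset tried. As deviations from the group means r was 0.74 for Fa2h, 0.65 for Gal3st1 and 0.71 for Ugt8a, and without the 2 libraries farthest from the median of the markers it was 0.68, 0.62 and 0.67. Over the 30 libraries of higher ribosomal share r was 0.73, 0.66 and 0.78, and over the 8 others 0.95, 0.84 and 0.82. Cers5 had a weaker relation of the same sign (r = 0.50, rho 0.44, permutation p = 0.00140, adjusted p = 0.00315), and r was 0.35 without the 2 farthest libraries. Sptlc2 went the other way (r = -0.39, rho -0.38, permutation p = 0.0161, adjusted p = 0.0290), at -0.25 without the 2 farthest libraries and -0.26 within groups. For Sptlc1, Cers2, Degs1 and Ugcg the adjusted p was from 0.365 to 0.867.

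Over the 38 libraries no relation to markers of later oligodendrocyte stages passed. Against the committed, newly formed and myelinating oligodendrocyte markers together, r was 0.12 for Fa2h, 0.09 for Gal3st1 and -0.20 for Ugt8a, and none of the 9 genes passed (smallest permutation p = 0.132, adjusted over 18 relations 0.296, for Degs1 with r = 0.25). Values differed between subsets: as deviations from the group means r was 0.47 for Degs1 and 0.18 for Fa2h, over the 30 libraries of higher ribosomal share 0.41 and 0.30, and over the 8 others -0.10 and -0.88. Cers2 had r = 0.16 over all libraries, 0.19 over the 30 and -0.83 over the 8. The levels of the oligodendrocyte and OPC marker lists had r = -0.25 with each other.

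**Figure D4:**
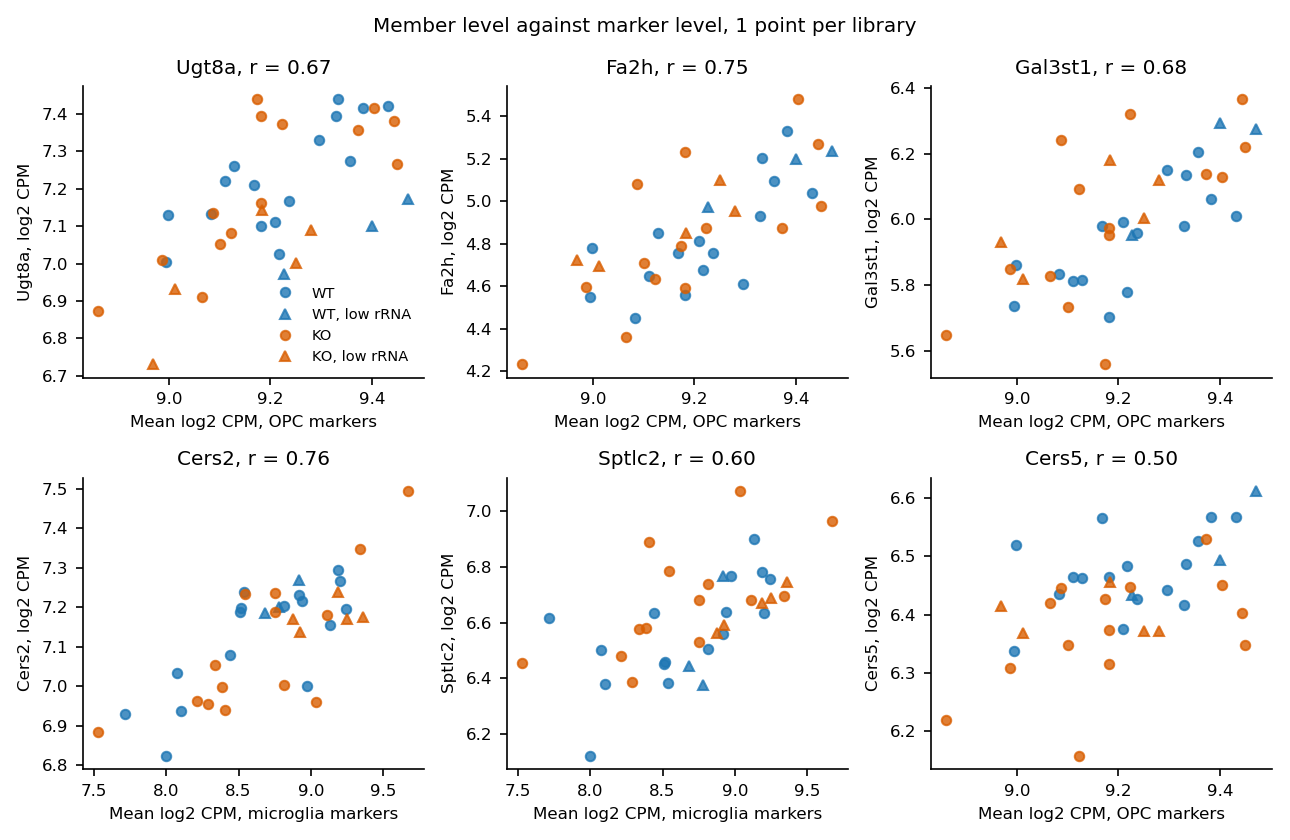
Log2 CPM of 6 of the genes (y axes) against the mean log2 CPM of the OPC or microglia markers (x axes), 1 point per library, WT in blue and KO in orange, triangles for the 8 libraries of low ribosomal RNA share. Fa2h, Gal3st1 and Ugt8a rise along the OPC axis (r = 0.75, 0.68 and 0.67), and Cers2 and Sptlc2 along the microglia axis (r = 0.76 and 0.60).

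Cers2 and Sptlc2 followed the microglia markers instead. Pearson's r with the mean log2 CPM of 15 microglia markers was 0.76 for Cers2 (rho 0.62, permutation p = 1e-05, adjusted over 18 relations 0.000180) and 0.60 for Sptlc2 (rho 0.64, permutation p = 4.00e-05, adjusted 0.000360). Within groups r was 0.80 and 0.74, and without the 2 farthest libraries 0.71 and 0.65. For Cers2 r was 0.77 over the 30 libraries of higher ribosomal share but -0.03 over the 8 others, and for Sptlc2 it was 0.63 and 0.75. Degs1 (r = 0.41), Sptlc1 (0.38), Ugcg (0.30), Ugt8a (-0.35) and Gal3st1 (-0.27) did not pass after adjustment (0.0658, 0.0785, 0.212, 0.102 and 0.265). How much of the Cers2 and Sptlc2 counts came from microglia left after panning was not tested. Here too the share of all genes with an r this high is not given, so the relation need not be particular to these 2 genes. The microglia and OPC lists had r = -0.40 with each other, so the 2 sets of relations are not independent.

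**Figure D5:**
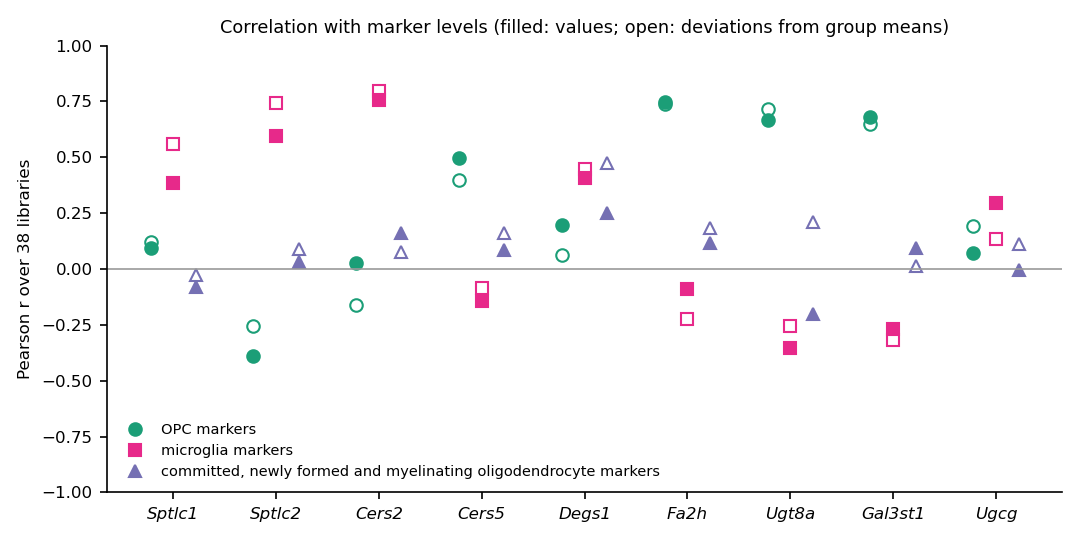
Pearson's r over the 38 libraries of each of the 9 genes with the OPC markers (circles), the microglia markers (squares) and the committed, newly formed and myelinating oligodendrocyte markers (triangles). Filled symbols use log2 CPM and open symbols deviations from the group means. Fa2h, Ugt8a and Gal3st1 have their highest r with OPC markers (0.75, 0.67 and 0.68), Cers2 and Sptlc2 with microglia markers (0.76 and 0.60).

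Among themselves the 9 genes fell into loosely joined sets, described here over 38 libraries that share depth and cell content. Of 36 pairs 30 had r above 0, with a median of 0.24. Fa2h and Gal3st1 had the highest value at 0.66, Sptlc1 and Sptlc2, the partners in serine palmitoyltransferase, had 0.62, Cers2 and Degs1 had 0.59 and Fa2h and Ugt8a had 0.57. The lowest was Sptlc2 with Gal3st1 at -0.30. Ugt8a and Ugcg, which share a substrate, had r = 0.24.

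The genes most like each member were sought among 12616 protein-coding genes by Pearson's r of log2 CPM over the 38 libraries. Ugt8a was nearest to Luzp2 (0.92), Enpp2 (0.89) and Omg (0.88, the oligodendrocyte myelin glycoprotein), the closest likeness of any member. Gal3st1 was nearest to Iglon5, Igsf21 and Olig1 (0.86 each), of which Olig1, an oligodendrocyte lineage factor, is in the OPC marker list. Fa2h was nearest to Lims2 (0.81), Pllp (0.75, plasmolipin, a myelin proteolipid) and S100a16 (0.74).

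For the genes of the shared ceramide path the nearest were of other kinds. Cers2 was nearest to Abhd12 (0.86), Creg1 (0.85) and Tcn2 (0.85), and Sptlc2 to Lactb2 (0.77), Siae (0.77) and Tlr6 (0.76, a Toll-like receptor). Degs1 was nearest to Cd9 (0.84, a tetraspanin), Sephs2 (0.79) and Emc3 (0.79), and Sptlc1 to Spcs3 (0.78, a signal peptidase subunit), B3galnt1 (0.77) and Atmin (0.75). Cers5 and Ugcg had no close partner, with Mpg (0.65), Pde4a (0.64) and Caskin2 (0.62) for Cers5 and Prr11 (0.70), Nup50 (0.69) and G3bp1 (0.69) for Ugcg.

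The wider pathway was read through a list of 81 sphingolipid genes that includes the 9, of which 79 were tested. In the KO against WT comparison 0 of 79 passed over all times, at ZT0, at ZT6 and at ZT18. At ZT12 there were 5 of 79, 1 higher and 4 lower in KO, or 6.33% beside 5.00% of all genes. Galc, the lysosomal enzyme that breaks galactosylceramide down, rose by 0.30 (SE 0.0677, edgeR adjusted p = 0.00869), from 105 ± 6.50 CPM in WT (SD, n = 6) to 130 ± 10.0 CPM in KO (SD, n = 4). Its WT libraries reached 117 CPM at most and its KO libraries began at 118 CPM, so the groups did not overlap.

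The 4 genes that fell at ZT12 act at several steps. Ormdl3, an inhibitor of serine palmitoyltransferase, fell by 0.56 (edgeR adjusted p = 0.00772), from 58.0 ± 7.75 CPM (SD, n = 6) to 39.3 ± 10.2 CPM (SD, n = 4). Tecr, the last reductase of very long chain fatty acid elongation, fell by 0.39 (adjusted p = 0.00712), from 270 ± 21.5 to 206 ± 26.4 CPM. The neutral sphingomyelinase genes Smpd2 and Smpd3 fell by 0.38 (adjusted p = 0.0176) and 0.51 (adjusted p = 0.0360). Without the 7 or the 8 libraries of low ribosomal share, which leave 3 WT libraries at ZT12, 0 of the pathway genes passed there, and with a term for those libraries Galc alone did. With only the 2 groups at ZT12 in the fit the count was also 0. Without the 13 libraries of 1 sex, which leaves 2 WT libraries at ZT12, it was 3 (Ormdl3, Smpd2 and Sphk2), and 0 of the 9 enzymes passed. Calls over all genes at ZT12 ran from 1 to 1913 over the alternatives other than leaving out 1 library. A lower count here need not be particular to the pathway.

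Interaction of genotype and time passed in 7 of 79 pathway genes (8.86%, beside 9.19% of all genes), Tecr, Ormdl3, Gltp, Galc, Smpd3, Col4a3bp and Smpd2, and in 0 without the 8 low-share libraries. Calls over all genes in this test ran from 0 to 3166 over the alternatives other than leaving out 1 library. Over WT times 2 of 79 passed, or 2.53% beside 4.91% of all genes. Gla, the lysosomal α-galactosidase, had the smallest p of the list (edgeR adjusted p = 1.19e-07), with 130 ± 13.4 CPM at ZT6 (SD, n = 5) against 36.2 ± 5.66 at ZT0, 53.0 ± 15.9 at ZT12 and 21.5 ± 5.85 at ZT18. The other was Smpd3 (adjusted p = 0.0215). Over KO times 21 of 79 passed, or 26.6% beside 21.9% of all genes. The smallest p-values were those of Gla (adjusted p = 2.78e-05), Ormdl3 (0.00105), Galc (0.00196) and Smpd3 (0.00263). The count was 7 without the 8 libraries of low ribosomal share. Calls over all genes in the test over KO times ran from 1468 to 6457 over the same alternatives. In KO, Gla again had its highest mean at ZT6, 103 ± 41.3 CPM (SD, n = 7), with single libraries from 45.6 to 147 CPM.

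By steps in KO, 10 of 79 pathway genes (12.7%, beside 10.2% of all genes) passed from ZT0 to ZT6, 9 up and 1 down, while 9 of the 15 microglia markers rose over the same step. Gla rose by 1.48 on the log2 scale (edgeR adjusted p = 0.000369), Cers6, another ceramide synthase, by 0.39 (adjusted p = 0.0129), Sgpl1, the sphingosine phosphate lyase, by 0.36 (adjusted p = 0.0136) and Sphk2, a sphingosine kinase, by 0.46 (adjusted p = 0.0168). Hacd1, a dehydratase of fatty acid elongation, was the one that fell, by 0.64 (adjusted p = 0.0424). From ZT6 to ZT12 there were 8 (10.1%, beside 7.02% of all genes), all down, Cers2 among them, and no microglia marker passed. Of these, Gla fell by 1.25 (adjusted p = 0.00221), Tecr by 0.36 (adjusted p = 0.00676), Gltp, a glycolipid transfer protein, by 0.35 (adjusted p = 0.0104) and Ormdl3 by 0.48 (adjusted p = 0.0133). From ZT12 to ZT18, where all later libraries have the low ribosomal share, 15 passed (19.0%, beside 15.6% of all genes), 10 up and 5 down. The part of microglial RNA and of the ribosomal share in these changes was not tested.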

How the data were processed

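RNA of panned mouse OPCs was measured in 38 poly-A libraries, grouped by the genotype and time in their titles. The authors deposited 1 table of whole-number read counts per gene, per the file headers. Per the submitters' processing notes reads were trimmed with fastp, aligned with HISAT2 2.0.5 to GRCm38 (mm10) and counted with featureCounts 1.5.0-p3. No source used here gives the annotation release or the strand setting. The 9 genes, the pathway list and the marker lists were chosen with earlier results of these data known.

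From the counts, genes passing filterByExpr were kept (22798 of 54532, with 99.95% of counts), scaled by TMM and fitted in edgeR 4.0.16 (R 4.3.3) over the 8 groups in 1 model without covariates. Quasi-likelihood tests were adjusted by Benjamini-Hochberg over all 22798 genes, with a threshold of 0.05. CPM values are TMM-scaled, per kb of the deposited gene length where genes are compared, and log2 CPM for correlations uses a prior count of 2. Correlations used 100000 permutations (Python 3.11.15, NumPy 2.4.6, SciPy 1.17.1). Promoters came from a RefSeq table (GRCm38.p6).

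The genes named are the 9 in every comparison, the pathway genes past the threshold (at most the 4 smallest p per direction, with all named where a count is small), the 3 protein-coding genes most correlated with each of the 9, and fixed markers. Alternatives were DESeq2 1.42.0, limma-voom 3.58.1, other scaling, no filter, each library left out, a replicate block, only the groups compared, and leaving out or modelling libraries with RNA of 1 sex or a low ribosomal share. The widest gap in the log of that share gave 7 libraries. The set of 8, by the gap in the share itself, the microglia term and the OPC marker relations were added after seeing the data. No library was a copy of another, as counts of all 76 replicate pairs differed beyond sampling noise (chi-square over its degrees of freedom at least 10.4). Code was tested on simulated data.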

Additional observations from a re-analysis of the deposited data

Results flagged for a closer look

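Of 72 combinations of gene and group, 6 held a library set apart from the rest of its group by Dixon's criterion, which chance meets in about 1 in 20. Cers2 stood at 141 CPM in KO ZT18 replicate 3, where the other libraries had 143.9 to 144.3 CPM, a gap that is large only beside a very narrow group. Cers2 stood at 122 CPM in WT ZT12 replicate 3, against 145 to 154 CPM in the others. Cers5 stood at 94.7 CPM in WT ZT18 replicate 4, against 85.3 to 86.4 CPM. Gal3st1 stood at 56.9 CPM in WT ZT18 replicate 1, against 62.1 to 63.1 CPM. Sptlc2 stood at 125 CPM in KO ZT6 replicate 3, against 92.3 to 104 CPM, and the same library had the highest Cers2 (180 CPM) and Degs1 (131 CPM) of all 38 and the highest sum of microglia markers (18637 CPM). Ugt8a stood at 143 CPM in KO ZT0 replicate 4, against 164 to 167 CPM.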

How the results depend on the processing

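The count of the 9 genes past the threshold, 0 in each KO against WT comparison, in the interaction and over WT times and 1 over KO times, moved in these alternatives. DESeq2 gave 1 over all times (Cers5) and 1 at ZT12 (Sptlc2). Limma-voom gave 1 at ZT12 (Cers5), and library size alone 1 at ZT12 (Sptlc2). Over KO times the count was 0 with library size alone, without the filter on low counts, without the 7 or the 8 libraries of low ribosomal share and with the microglia term. That term, added after seeing the data, gave 3 at ZT12 and 2 (Sptlc2 and Gal3st1) in the interaction. With 1 library left out at a time the count ran from 0 to 2 at ZT12, 0 to 1 in the interaction and 0 to 2 over KO times, and was 0 throughout elsewhere. The value that passed, the Cers2 step in KO, kept its sign in every alternative, while 17 of 45 KO against WT log2 fold changes, none of which passed in any alternative, took both signs (Fa2h at ZT18 from -0.15 to 0.14). The cause of these shifts was not tested. Genes called over all alternatives other than leaving out 1 library ranged from 1 to 1913 at ZT12 and from 1468 to 6457 over KO times. Left out, the 7 low-share libraries leave 1 KO library at ZT18, assumed to vary like the other groups, and the 8 leave none, so no ZT18 value. Replicate numbers were not used as pairs in the main fit. Of 17 same-numbered WT and KO pairs, 3 had a correlation of deviations above 0.1 (-0.09 to 0.24). The highest were replicate 1 at ZT6 (0.24) and at ZT0 (0.16). Such values cannot tell whether libraries were prepared together. With the replicate block every count of the 9 genes was as without it, 1 over KO times (Cers2, edgeR adjusted p = 0.0340) and 0 elsewhere. The lowest count of any of the 9 genes in any library was 458 (Fa2h).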
